A study of Glycine max with 4 samples.

Results

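Transcription start sites that lie close together on the same strand were examined in roots and shoots of soybean (Glycine max, cultivar Williams 82). The members were pairs of neighbouring start regions more than 100 and at most 1000 bp apart, chosen by the position and the TPM of the starts, TPM being the authors' tag level per tissue. To find them, tag clusters from the authors' root and shoot lists that lay at most 100 bp apart on 1 strand were joined into 23330 start regions. The 12506 regions with 5 TPM or more in root or in shoot were kept. Of the 12466 pairs of consecutive kept regions on 1 strand, 550 met the limits on the gap. They contained 1038 different regions, 8.30% of those kept. In each pair the start that a polymerase moving along the strand would meet first is called upstream and the other downstream.

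Eukaryotic genes can have more than 1 promoter, and starts that lie in tandem give transcripts of the same strand that differ in the length of their leader or in their first exon. Such leaders can carry upstream reading frames or signals for protein targeting, and plants are known to shift between tandem starts in response to light and between tissues. Promoters are usually grouped into sharp ones, in which most transcripts start at 1 or a few bases, and broad ones, in which starts are scattered. A 5′ end inside a transcript may also come from recapping or from incomplete selection of the cap, and tag positions alone cannot tell such ends from promoters.

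The data came from nanoCAGE, which aims to read the capped 5′ ends of RNA, so each tag is taken to mark a first transcribed base. There were 2 root and 2 shoot libraries, each from 1 µg of total RNA of Williams 82 plants grown for 2 weeks under white light (300 µmol/m2/s, lit for 12 h a day). No other treatment or genotype is given, and the labels do not say that the numbered libraries came from separate plants, so p-values measure the spread between these libraries, which may be technical. In bulk tissue, fewer cells that use a start and less RNA per cell cannot be told apart. The assembly has 20 sequences, and tags per library end within sequence 13. They numbered 1000476 and 874004 in root replicates 1 and 2, and 901261 and 655935 in shoot replicates 1 and 2. These tags covered 385 of the 550 pairs. The other 165 pairs have 1 pooled TPM value per tissue and no replicate check. Positions follow the deposited files and count from 1. No annotation of their assembly was used, so pairs are named by position, and whether the starts of a pair belong to 1 gene is not known here.

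Short gaps dominated. The median gap was 329 bp, with quartiles at 215 and 609 bp. Over 150 and up to 300 bp there were 249 pairs (45.3%), against 99 pairs in the next 150 bp and 59 in the 150 bp after that. Only 2 pairs lay within 150 bp, and within the authors' root list and within their shoot list no 2 clusters on 1 strand were closer than 151 bp. Just inside and outside the limits of the selection, the weakest member had 5.15 TPM and the strongest region left out had 4.92 TPM, and the widest member gap was 996 bp and the next wider gap 1007 bp. Most pairs stood alone: 433 runs held 2 regions, 49 held 3, 5 held 4 and 1 held 5.

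**Figure D1:**
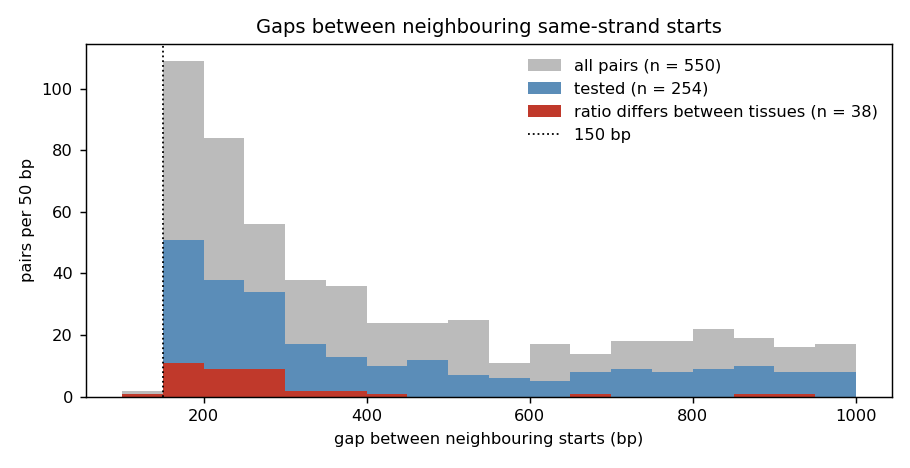
Number of pairs (y axis, per 50 bp) by the gap between the 2 starts (x axis, bp), for all 550 pairs (grey), the 254 tested (blue) and the 38 whose upstream to downstream ratio differed between the tissues (red), with the bars overlaid. The dotted line marks 150 bp, below which 2 pairs lie, and 30 of the 38 red pairs have gaps of 300 bp or less.

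Member regions were somewhat broader than other kept regions. Their median width was 53 bp against 40 bp in the 11468 other kept regions, and 21.4% were 10 bp wide or less against 28.3%. Their median level in the tissue where they were stronger was 17.9 TPM, against 18.4 TPM in the others. By tissue the medians were 8.74 and 12.3 TPM in root and 11.9 and 10.7 TPM in shoot, for members and others, and members held 7.96% of the root and 15.3% of the shoot TPM of all kept regions. Upstream starts were the more focused of the pair. In the 162 pairs with 10 TPM or more at both starts in root, the strongest single base held a median of 38.3% of the upstream tags and 22.9% of the downstream tags, and this share was higher upstream in 107 pairs (66.0%). In the 191 such pairs in shoot the medians were 43.8% and 22.1%, and the upstream share was higher in 133 pairs (69.6%). Upstream starts also held more tags in these pairs, with medians of 36.3 and 23.0 TPM in root and 50.01 and 26.1 TPM in shoot. The part of tag number in the difference of shape was not tested.

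The upstream start was the stronger one in most pairs. This was so in 324 of 550 pairs in root (58.9%, 95% Wilson interval 54.7 to 62.9) and in 331 in shoot (60.2%, 56.0 to 64.2), with ties in 37 and 3 pairs. These Wilson intervals treat pairs as independent, though pairs of 1 run share a region, and hold no spread between libraries. The exact counting intervals and floors given further on cover counting error of tags only, and tags were read without molecular identifiers. Among consecutive pairs over 1000 to 5000 bp apart the shares were 57.9% in root and 55.9% in shoot (617 pairs), and at gaps over 20000 bp they were 49.3% and 50.1%. In the single libraries 53.2% to 57.9% of the 385 covered pairs had more tags upstream, ties counting against. The starts of a pair were often unequal: the weaker one had a median of 32.0% of the TPM of the stronger one, both tissues summed, and in 110 pairs it had less than 10%. The upstream start was the stronger one in 74.5% of those 110 pairs, and in 53.3% of the 182 pairs whose starts were within a factor of 2 of each other.

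The first comparison asked whether the starts of a pair differ between the tissues in the same way. Neighbouring starts mostly did so: where one was higher in shoot, so was the other. Each start region was tested with edgeR's quasi-likelihood test over all merged regions, with Benjamini-Hochberg adjustment at 0.05. In the 294 pairs whose starts both had enough tags, both starts were higher in shoot in 106 pairs (36.1%) and both higher in root in 45 (15.3%). Neither was called in 89 pairs (30.3%), exactly 1 in 46 (15.6%), and the starts were called in opposite directions in 8 (2.72%). The 46 pairs with 1 call had it upstream in 23 and downstream in 23. Among 300 consecutive pairs over 1000 to 5000 bp apart, opposite calls made up 6.33% and single calls 31.0%, and among 4523 pairs over 20000 bp apart they made up 12.7% and 50.2%.

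Taken singly, 390 of 638 tested member regions (61.1%) differed between the tissues, against 52.9% of all 7183 regions tested. The surplus was on the shoot side. Of the member regions 40.1% were higher in shoot, against 29.5% of all regions, and 21.0% were higher in root, against 23.4%. The median log2 difference, shoot minus root, was 0.46 in the members and 0.06 in all tested regions. Scaling to total tags, which moves the median of all regions to -0.32, gave 0.08 for the members, with 35.4% of them higher in shoot against 24.8% of all regions. The rule favours a difference in a region that reaches 5 TPM in 1 tissue alone. Among member regions with 5 TPM or more in both tissues, 124 of 343 were called (36.2%), against 35.0% of the 4585 such regions in the whole table.

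Across the 550 pairs the log2 ratio of shoot to root, computed from pooled TPM plus 0.5, correlated at r = 0.864 between upstream and downstream start on the covered sequences (385 pairs) and at 0.872 on the others (165 pairs). By gap, r was 0.839 at over 100 to 200 bp (113 pairs), 0.763 at over 200 to 300 bp (138), 0.893 at over 300 to 500 bp (122) and 0.929 at over 500 to 1000 bp (177). It was 0.830 at over 1000 to 2000 bp (235 pairs), 0.494 at over 2000 to 5000 bp (382), 0.111 at over 5000 to 20000 bp (1916) and -0.0019 beyond (9383). These values describe pairs measured in the same pooled libraries, and pairs are not replicates. By the same pooled values, 143 pairs had both starts at least 5-fold higher in shoot and 62 had both at least 5-fold higher in root. In 3 member pairs (0.55%) the starts were 5-fold apart in opposite directions, against 1.62% and 5.40% of those more distant pairs.

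**Figure D2:**
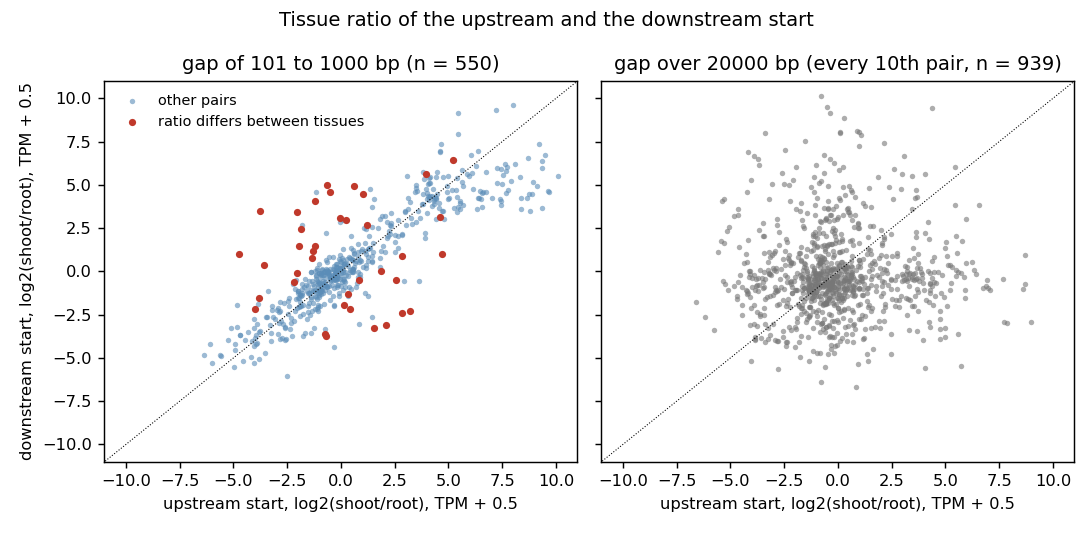
Log2 ratio of shoot to root (pooled TPM plus 0.5) of the downstream start (y axis) against the upstream start (x axis), 1 point per pair, for the 550 member pairs (left) and for 1 in 10 of the 9383 pairs over 20000 bp apart (right). Red marks the 38 member pairs whose upstream to downstream ratio differed between tissues. Most member pairs lie along the dotted diagonal of equal ratios (r = 0.864 and 0.872 on covered and other sequences), and the distant pairs show no such line (r = -0.0019).

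The second comparison asked for which pairs the balance between the starts itself differed between root and shoot. The quantity tested was the ratio of upstream to downstream tags within each library, which does not depend on how libraries are scaled to each other. It was fitted with edgeR's quasi-likelihood test over all 7422 consecutive pairs with at least 10 tags at each start and 20 tags per tissue, and p-values were adjusted over all of them. Of the 385 covered member pairs 254 were tested. The other 131 fell short in 1 tissue, 88 of them in root and 43 in shoot, so pairs nearly silent in a tissue are not part of what follows.

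A difference in balance was called in a minority of pairs, 38 of 254 member pairs (15%), against 56.7% of all consecutive pairs tested. The upstream start gained share in shoot in 15 of the 38 (28% of all consecutive pairs were called in this direction) and in root in 23 (28.7%). The upstream shares of the root and shoot libraries did not overlap in 140 of the 254 pairs, against 79.6% of all consecutive pairs, and in all 38 called. The unadjusted p was below 0.05 in 44 pairs. Left out 1 at a time, root replicates 1 and 2 left 32 and 33 calls, shoot replicate 1 left 24 and shoot replicate 2 left 25. Regions kept by their mean over both tissues gave 25 calls in 209 pairs. A pair whose starts reach 5 TPM in different tissues was chosen with a difference built in, which applied to 10 member pairs, of which 6 were tested and 5 called, among them pairs M and N described further on. Where both starts had 5 TPM or more in both tissues, an alternative chosen after the data were examined, 4 of 118 pairs were called (3.39%). Of the pairs lettered A to L further on, only L was of this kind. In A to K 1 start reached 5 TPM only in the tissue where it was higher. The rule thus used part of their difference, and their p-values apply to members chosen in that way.

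Calls thinned out with distance inside the member range and rose again beyond it. Up to 300 bp, 30 of 124 tested pairs were called (24.2%), and over 300 to 1000 bp 8 of 130 (6.15%). The share was 17.3% of 98 pairs at over 1000 to 2000 bp, 46.3% of 203 pairs at over 2000 to 5000 bp, and 58.3% and 59.3% beyond. The weaker start had a median of 45.5 to 60 tags in every one of these bins. With both starts at 5 TPM or more in both tissues 3 of 53 pairs up to 300 bp and 1 of 65 pairs over 300 to 1000 bp were called, so that 3 of the 30 calls up to 300 bp were in such pairs. Beyond 5000 bp the shares were 40.7% and 38.5%.

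**Figure D3:**
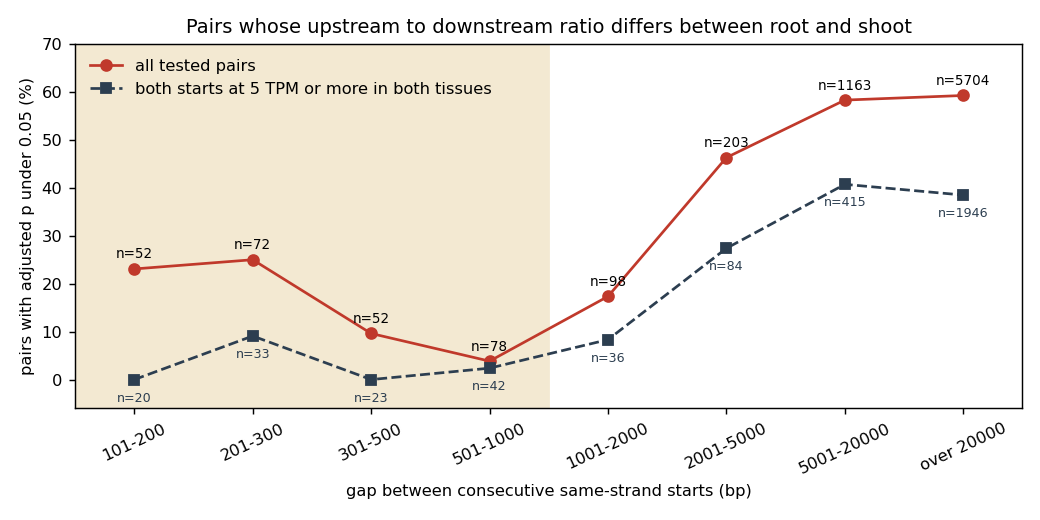
Percentage of consecutive same-strand pairs whose upstream to downstream ratio differed between root and shoot (y axis, edgeR adjusted p under 0.05) by gap (x axis, bp), for all tested pairs (red) and for pairs with 5 TPM or more at both starts in both tissues (dark), with the number of pairs at each point. Shading marks the member range, where the lowest red value is 3.85% at over 500 to 1000 bp, against 59.3% over 20000 bp.

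Replicates set the scale of these shifts. In the 178 member pairs with 20 tags or more in every library, the upstream share differed by a median of 3.55 percentage points between the root libraries and 2.85 points between the shoot libraries. Between a root and a shoot library the medians were 4.81 to 5.10 points. The called pairs were picked by the test of this shift and were not limited to 20 tags per library. In 8 of them a start had no tag in a tissue. The upstream share of called pairs moved by a median of 33.9 points between pooled tissues, and in 22 pairs by more than 25 points. In the 216 pairs not called the share moved by a median of 5.06 points and by under 10 points in 171. Their log2 differences had a median standard error of 0.68, and 43 of them had a fitted difference of 2-fold or more, so shifts of that size could go uncalled.

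The called pairs whose upstream start gained in shoot are shown by 6 examples, taken by size of the fitted difference among those with 50 tags per tissue. In pair A, on sequence 8 plus strand, the upstream start at 2926916 to 2927000 had 21 and 11 tags in the root libraries and 178 and 98 in the shoot libraries. Its downstream start at 2927196 to 2927200 had 23 and 17 tags in root and 6 and 0 in shoot. The upstream share was thus 47.7% and 39.3% in root and 96.7% and 100% in shoot. The log2 difference of the ratio, shoot minus root, was 5.91 ± 0.78 (SE, edgeR adjusted p 4.50e-06), and it ran from 5.21 to 10.51 with 1 library left out, the highest value coming from shoot replicate 2 alone, which has no downstream tag.

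Pair B, on sequence 6 plus strand, paired a 62 bp wide upstream start at 10988050 to 10988111 with a downstream start of the single base 10988420. Upstream tags were 29 and 16 in root and 116 and 62 in shoot, and downstream tags 48 and 24 in root and 4 and 2 in shoot. The single base therefore held most root tags of the pair and few shoot tags. The log2 difference was 5.51 ± 0.67 (edgeR adjusted p 1.64e-06, 5.42 to 5.57 with 1 library left out).

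Pair C, on sequence 6 minus strand, changed its stronger start between the tissues. The broad downstream start at 3588171 to 3588321, had 99 and 166 tags in root and 17 and 6 in shoot. The narrow upstream start at 3588541 to 3588547, had 7 and 6 tags in root and 21 and 16 in shoot. Upstream shares were 6.60% and 3.49% in root and 55.3% and 72.7% in shoot, with no overlap. The log2 difference was 5.03 ± 0.69 (edgeR adjusted p 6.83e-06, 4.52 to 5.69 with 1 library left out).

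The other 3 examples in this direction moved less. In pair D, on sequence 2 plus strand, upstream at 50213500 to 50213569, the upstream share was 63.7% and 87.2% in root and 97.3% and 97.4% in shoot. Here the downstream start at 50213758 to 50213805 fell from 37 and 11 tags in root to 1 in each shoot library, and the log2 difference of 3.41 ± 0.99 (edgeR adjusted p 0.00681) was 2.29 without root replicate 1, where it no longer passed (adjusted p 0.0930). In pair E, on sequence 11 plus strand, the upstream start at 652330 to 652370 had 7 and 3 tags in root and 39 and 21 in shoot, while the downstream start at 652594 to 652609 had 33 and 23 in root and 22 and 13 in shoot. Its log2 difference was 3.24 ± 0.71 (edgeR adjusted p 0.000748). Pair F, on sequence 9 minus strand, joined 2 single bases, 49028311 upstream and 49027995 downstream. The upstream base had 71.9% and 70% of the tags in root and 93.5% and 97.4% in shoot, a log2 difference of 2.98 ± 0.83 (edgeR adjusted p 0.00494) that was lost when shoot replicate 2 was left out (2.51, adjusted p 0.0536).

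In the opposite direction, 6 examples had an upstream start that gained share in root. In pair G, on sequence 13 plus strand, the upstream start at 22543417 to 22543470 had 19 and 26 tags in root and none in shoot. The downstream start at 22543623 to 22543650 had 24 and 17 tags in root and 57 and 18 in shoot. The ratio of upstream to downstream tags was at least 19.7-fold lower in shoot by its exact 95% counting limit, and 27.4-fold lower with 3 tags taken as the floor for both shoot libraries summed. The fitted log2 difference, which depends on a prior count and is no bound, was -8.68 ± 1.35 (edgeR adjusted p 3.34e-05).

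Pair H, on sequence 12 plus strand, was balanced in root and almost wholly downstream in shoot. The upstream start at 3716142 to 3716181 had 16 and 22 tags in root and 1 and 0 in shoot, and the downstream start at 3716428 to 3716538 had 27 and 15 in root and 257 and 175 in shoot. The ratio was 391-fold lower in shoot, with an exact 95% counting interval of 61.4 to 15871 that reflects the single shoot tag. The log2 difference was -8.38 ± 0.89 (edgeR adjusted p 3.28e-07, -10.88 to -7.74 with 1 library left out).

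In pair I, on sequence 1 minus strand, the downstream start alone was called. The upstream start at 2823111 to 2823172 had 86 and 45 tags in root and 36 and 38 in shoot, while the downstream start at 2822754 to 2822838 had 3 in each root library and 135 and 81 in shoot. By edgeR the downstream start was higher in shoot (log2 difference 5.71, adjusted p 1.78e-06). It had 1.72 TPM in root and 69.8 TPM in shoot and was kept through shoot alone. The rule thus used part of this difference, and the p-value applies to a start chosen in that way. The upstream start had a log2 difference of -0.15 (edgeR adjusted p 0.750). The upstream share fell from 96.6% and 93.8% in root to 21.1% and 31.9% in shoot. Pair L, also on sequence 1 minus strand, had the same pattern of calls: its 2 bp upstream start at 55613206 to 55613207 had 18 and 28 tags in root and 21 and 18 in shoot, and its downstream start at 55612800 to 55612954 had 8 and 28 in root and 162 and 117 in shoot. The log2 differences of the ratio were -5.86 ± 0.65 in pair I and -3.27 ± 0.59 in pair L (edgeR adjusted p 5.67e-07 and 0.000126).

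Pair K, on sequence 10 plus strand, was mainly downstream in both tissues. Its upstream start at 24543775 to 24543827 had 19 and 17 tags in root and 4 and 3 in shoot, and its downstream start at 24544186 to 24544213 had 68 and 65 in root and 189 and 151 in shoot. The upstream share was 21.8% and 20.7% in root and 2.07% and 1.95% in shoot, a log2 difference of -3.69 ± 0.64 (edgeR adjusted p 8.52e-05). Pair J, on sequence 3 minus strand, shows how small a share the test can rest on. The upstream start at 44308182 to 44308185 had 16 and 7 tags in root and none in shoot beside a downstream start of 1873 and 945 tags in root and 573 and 290 in shoot, so that its share was 0.847% and 0.735% in root. The ratio was at least 1.76-fold lower in shoot by its exact 95% counting limit, and 2.35-fold lower with the same floor, and the call was lost without shoot replicate 1 (edgeR adjusted p 0.0903).

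**Figure D4:**
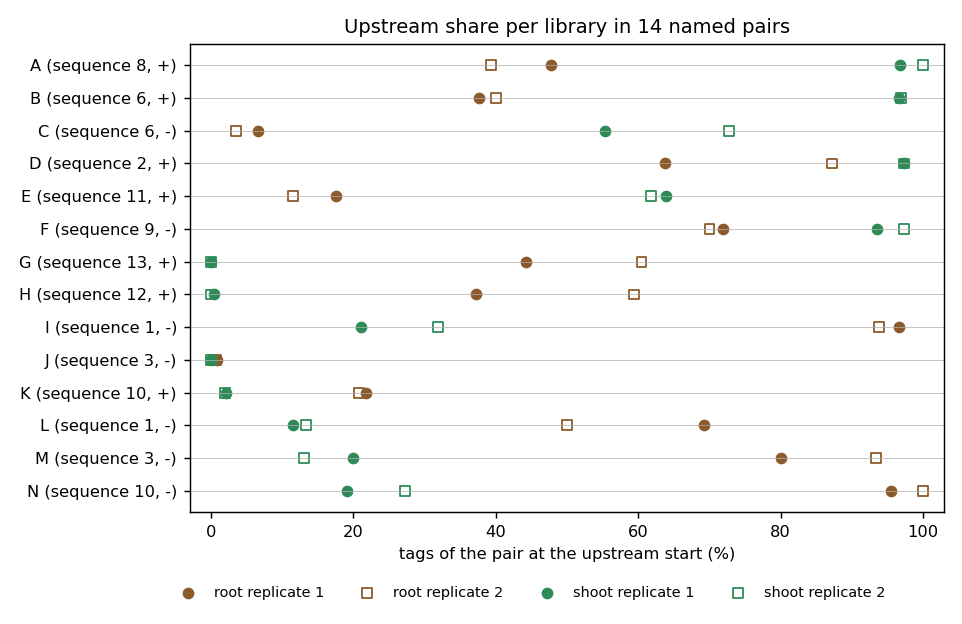
Upstream share of the tags of a pair (x axis, %) in each root library (brown) and shoot library (green), replicate 1 filled and replicate 2 open, for the 14 named pairs A to N (rows). In every row both root libraries lie on 1 side of both shoot libraries; the gap is widest in rows such as I and N and under 1 point in J.

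In 8 pairs the starts were called in opposite directions by the test of single regions. The upstream start was higher in shoot in A, B and C and higher in root in G, H, K and 2 further pairs, M and N. In pair M, on sequence 3 minus strand, the upstream start at 4770728 to 4770745 had 24 and 14 tags in root and 5 and 3 in shoot, and the downstream start at 4770369 to 4770531 had 6 and 1 in root and 20 in each shoot library. In pair N, on sequence 10 minus strand, the upstream start at 1644477 to 1644563 had 21 and 18 tags in root and 4 and 3 in shoot, and the downstream start at 1644196 to 1644220 had 1 and 0 in root and 17 and 8 in shoot. In both pairs each start reached 5 TPM only in the tissue where it was higher. The rule therefore used their difference, and it is given without a test. In A, B, C, G, H and K this held for 1 start, so the rule used part of the difference there. The ratios differed by 27.1-fold in M (exact 95% counting interval 8.03 to 96.1) and 139-fold in N (15.9 to 5855). Among these 8 pairs both starts kept their opposite calls under every alternative for B, C and H alone. In A and G the downstream call, and in K, M and N the upstream call, was lost in at least 1 alternative, with adjusted p up to 0.332 by edgeR or DESeq2.

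In A, C, H and K, the 2 such pairs of each direction with the most tags, the position of the tags within each start was compared. In pair C the strongest downstream base, 306 bp from the 5′ edge of the upstream start, had 19.8 TPM in root and 2.28 TPM in shoot, and the strongest upstream base had 3.44 TPM in root and 9.68 TPM in shoot. In pair K 1 base, 430 bp from that edge, had 30.2 TPM in root and 90.5 TPM in shoot. The strongest base of the upstream start of pair A had 3.15 TPM in root and 18.6 TPM in shoot. In pair H the strongest downstream base in shoot, 373 bp from that edge, had 27.6 TPM in shoot and 1.15 TPM in root, where no downstream base exceeded 1.72 TPM.

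**Figure D5:**
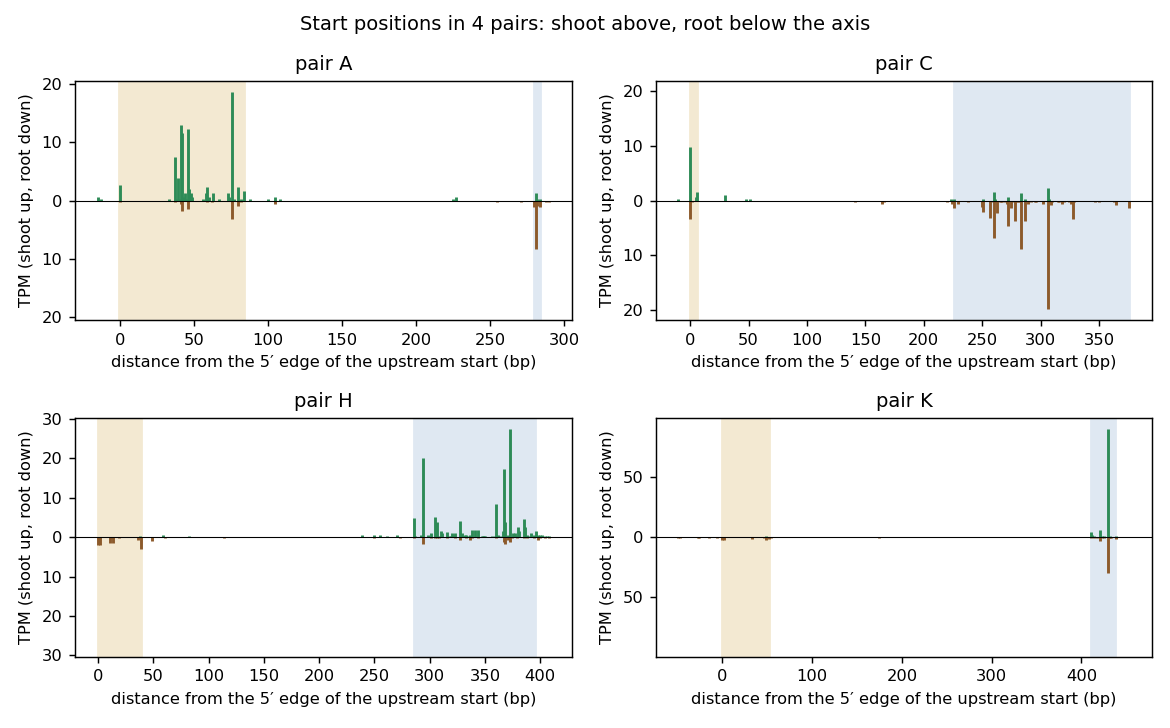
TPM per base (y axis, shoot above and root below 0) by distance from the 5′ edge of the upstream start (x axis, bp) in pairs A, C, H and K, with the upstream region shaded in tan and the downstream region in blue. In A and C the shoot bars dominate upstream and the root bars downstream, and in H and K the shoot bars dominate downstream, where the strongest base of K reaches 90.5 TPM.

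Among the 38 called pairs, single-region calls were opposite in 8, in the same direction in 7, upstream alone in 5, downstream alone in 11 and absent in 7. The 24 called pairs not lettered here held 60 to 3000 tags and had log2 differences of 1.28 to 7.59 in size, 9 with more upstream share in shoot and 15 with more in root. In 6 of them a start had no tag in 1 tissue. The pooled stronger start changed in 19 of the 38. Named after their values were seen, 3 called pairs had gaps over 500 bp: sequence 6 minus strand at 7975323 (684 bp), sequence 7 plus strand at 5502281 (884 bp) and sequence 13 plus strand at 37883924 (919 bp), with log2 differences of 1.55, -2.84 and -1.46. The sequence 13 pair was also among the 4 called pairs with 5 TPM or more at both starts in both tissues. The others, again named after the fact, were pair L, a pair on sequence 5 minus strand at 19145575 and a pair on sequence 6 plus strand at 16990362. On sequence 5 the upstream single base had 69 and 59 tags in root and 688 and 1161 in shoot, and the downstream start 15 and 6 in root and 504 and 498 in shoot, so that both rose in shoot while the upstream share fell from 85.9% to 64.9%.

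The stronger start of a pair was the same in both tissues in most cases. In pooled TPM it was upstream in both tissues in 274 pairs and downstream in both in 149. It changed in 87 pairs (15.8%), against 22.0% of pairs over 1000 to 5000 bp apart and 36.3% of those over 20000 bp apart. Of the 87, 68 were pairs whose starts were within a factor of 2 of each other. Every library kept to the side of its tissue in 29 of the 385 covered pairs, against 24% of all covered consecutive pairs, and the ratio test called 13 of these 29 and did not include 7.

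The strongest pairs were a strong upstream start followed by a much weaker one, in 4 of the 5 with the highest summed TPM. On sequence 14 minus strand, the upstream start at 632067 to 632095 had 15.8 TPM in root and 4493 in shoot, and the downstream one at 630940 to 631191 had 0 and 35.9 TPM. On sequence 14 plus strand, at 377435 to 377536, the upstream start was strong in both tissues, with 1947 TPM in root and 2520 in shoot, before a downstream start of 22.0 and 39.3 TPM at 378373 to 378620. These pairs have no replicates.

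On sequence 1 plus strand the upstream start at 47966432 to 47966806 had 8 and 12 tags in root and 7141 and 7005 in shoot, and the downstream start at 47967653 to 47967739 had 0 in root and 90 and 73 in shoot. On sequence 7 minus strand, at 11558427 to 11558595, upstream tags were 20 and 16 in root and 7432 and 6513 in shoot, with 15 and 13 downstream tags in shoot and none in root at 11557767 to 11557796. With so few root tags a change in ratio was not detectable in these pairs (edgeR adjusted p 0.579 and 0.765). The fifth, on sequence 4 minus strand, had starts of like strength in both tissues: 1731, 1560, 2050 and 1392 tags in root replicates 1 and 2 and shoot replicates 1 and 2 at 773019 to 773336 upstream, and 1170, 1085, 1762 and 1111 at 772370 to 772680 downstream. The log2 difference of its ratio was -0.27 ± 0.41 (edgeR adjusted p 0.594).

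The longest run held 5 narrow starts on sequence 5 plus strand, 2 to 9 bp wide, separated by 286, 167, 369 and 438 bp. From upstream to downstream they began at 37152985, 37153279, 37153450, 37153820 and 37154260. The first had 87 tags in each root library and 10 and 18 in the shoot libraries, and the second had 33 and 35 in root and 6 and 8 in shoot. The third was the strongest in every library, with 122 and 93 tags in root and 45 and 41 in shoot. The fourth had 19 and 17 tags in root and 13 in each shoot library, and the fifth 12 and 7 in root and 9 and 8 in shoot. The first 2 were higher in root (log2 differences -1.96 and -1.63, edgeR adjusted p 0.00232 and 0.0149), the second not without shoot replicate 1 (adjusted p 0.116), and none of the 4 neighbouring ratios was called.

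The next 2 runs had 4 regions each and were nearly confined to shoot. On sequence 11 plus strand, starts at 7487103, 7487806, 7489016 and 7489220 had 207, 2709, 22 and 134 tags in shoot replicate 1 and 186, 2006, 15 and 113 in shoot replicate 2. In root the second had 3 and 2 tags and the others none. This second region was 1004 bp wide. On sequence 9 plus strand, starts at 34695547, 34696233, 34697167 and 34697364 had 20, 18, 105 and 466 tags in shoot replicate 1 and 11, 11, 81 and 403 in shoot replicate 2. In root the first pair of starts had none, the third 3 in each library and the last 11 and 9. In this run the last start was the strongest in every library.

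Sequences without counts gave like values in pooled TPM. The tissue ratios of the starts differed by more than 4-fold in 28 of 165 pairs there (17.0%) and in 60 of 385 covered pairs (15.6%), against 47.2% of all consecutive pairs. The stronger start changed in 12.1% and 17.4%. Of 65 uncovered pairs with 20 TPM or more in each tissue, 4 had an upstream share that differed by 25 points or more. On sequence 13 minus strand at 33032230 the share was 100% in root and 53.5% in shoot, and on sequence 19 minus strand at 77553 it was 98.3% and 63.2%. On sequence 17 plus strand at 41717453 it was 2.95% in root and 35.9% in shoot, beside a downstream start of 160.2 TPM in root and 25.4 TPM in shoot, and on sequence 20 plus strand at 41497222 it was 67.6% and 94.4%. The next in each direction were sequence 17 plus strand at 41906724, with 62.8% and 83.3%, and sequence 15 minus strand at 54561662, with 51.5% and 29.7%.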

How the data were processed

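Tags per start position were deposited as raw counts for 2 root and 2 shoot libraries, per the file headers, in a table that ends within sequence 13. The deposited TPM table and cluster lists, per the file headers, hold 1 value per tissue from both replicates. Aligner and clustering software: not given in the sources used here. As computed here, 1 tag was worth 0.286 TPM in root and 0.329 in shoot, and TPM rose with tags with exponents of 1.00 and 0.994. How tags of duplicated genes were placed is unknown, so pairs in near-identical copies are uncertain.

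Gaps are the start of a region minus the end of the one before. Ratios were fitted on upstream and downstream counts with a term per library, the position and position by tissue (edgeR 4.0.16, R 4.3.3); regions were fitted with tissue as the only term, filterByExpr and TMM factors of 1.13, 1.16, 0.899 and 0.852. "EdgeR adjusted p" means the quasi-likelihood test with Benjamini-Hochberg adjustment, called under 0.05. The standard error is the log2 difference divided by the square root of F. DESeq2 1.42.0 served as an alternative. Both fits were also run on simulated data with a fixed spread between libraries and changes in few rows. These settings differ from the data, so that run does not measure error rates here.

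Named pairs were, per direction, the 6 called pairs with the largest difference, 50 tags per tissue and no overlap of shares; the 5 highest in TPM; the 3 longest runs (ties by TPM); pairs with opposite region calls; and, without counts, the 3 largest share differences per direction. The members, lists and rules were chosen with earlier results of these data known.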

Additional observations from a re-analysis of the deposited data

Results flagged for a closer look

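The interaction term of the ratio test, the difference in the effect of position between root and shoot, is given here for the 14 lettered pairs. Pairs A to L were named because this test called them, so the list adds no further test. The log2 differences, shoot minus root, were 5.91 in A, 5.51 in B, 5.03 in C, 3.41 in D, 3.24 in E and 2.98 in F. They were -8.68 in G, -8.38 in H, -5.86 in I, -5.14 in J, -3.69 in K, -3.27 in L, -4.75 in M and -6.71 in N. In M and N the choice of members used the difference at both starts, so the values of M and N are descriptions. In A to K it used the level of 1 start in the tissue where that start was higher. With 2 libraries per tissue no single library could be examined as an outlier.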

How the results depend on the processing

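The 38 calls of the ratio test became 24 to 33 with 1 library left out, 31 with a replicate block, 26 with DESeq2, 28 against a fold of 2, 41 without a count filter and 38 with RLE factors. They became 25 for regions kept by their mean over both tissues, 4 for starts of 5 TPM or more in both tissues, and 30 when adjusted over pairs up to 5000 bp apart, the last 2 chosen after the data were examined. All 31 calls under the block were among the 38, and of the 24 calls without shoot replicate 1, 23 were. The share called stayed smaller over 300 to 1000 bp than up to 300 bp in the alternative fits. These were the block, RLE factors, DESeq2, a fold of 2 and no count filter. Where both starts had 5 TPM or more in both tissues, 3 of 53 pairs up to 300 bp and 1 of 65 over 300 to 1000 bp were called. Those calls are too few to show how the share changes with the gap. Calls of member regions numbered 307 to 400 with 1 library left out and 364 with the replicate block, against 390. The replicate numbers were not taken to pair libraries: deviations of same-numbered libraries correlated at r = -0.05 over 6518 regions. With a limit of 10 TPM there were 289 pairs, 548 regions, 48 pairs whose stronger start changed and 16 that did so in every library, against 29, which became 40 to 42 with 1 library left out. For the lettered and other named pairs 213 of 216 recomputed ratio tests kept direction and call. Of the 348 for their single starts 309 did, 29 lost and 3 gained a call. Another 7, all of uncalled starts, changed sign in at least 1 fit. With 1 library left out, 652594 on sequence 11 ran from -0.24 to 0.12 (0.09 without shoot replicate 2), 2823111 on sequence 1 from -0.50 to 0.26 (0.12 without shoot replicate 1) and 37153820 on sequence 5 from -0.033 to 0.42. Scaled to total tags, 37153820 had -0.21 and 55613206 on sequence 1 had -0.0018. The causes were not tested. A test over whole runs (diffSpliceDGE) was not run, since its p-values would be adjusted over the members alone. Depth limits the ratio test most where a tissue has few tags of a pair.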

Other observations

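Neighbouring starts occurred on all 20 sequences. The share of kept regions that were members ran from 4.86% on sequence 2 to 11.8% on sequence 5. Sequence 10 had the most pairs, 43, and sequences 2, 14 and 19 had 17 each. In most pairs few tags fell between the starts, where the rule allows no region of 5 TPM or more. Such tags made up a median of 6.74% of the TPM of starts and gap together, and 5 pairs had none. The upper quartile was 13.7% and the highest value 58.2%.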
